A study of Homo sapiens with 6 samples.

Results

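Transcripts of 57 genes of DNA replication and the S phase were compared between leukemia cells given the menin-MLL inhibitor MI-389 and cells given its solvent. All 57 genes were represented on the arrays, by 146 of the 49293 tested probe sets, and they are 57 of the 18239 genes with a value of their own. The members were the genes of the replication machinery and of the entry into S phase named in a list, and every probe set with 1 of these symbols in the platform annotation was taken. The choice rests on known function and not on a threshold of measured values, but it was made with earlier results of these data known. The samples were MV4;11 cells, an established human leukemia line with a rearranged MLL gene, measured as total RNA on 6 Affymetrix arrays with labelling from the 3-prime end. The 3 MI-389 arrays came from cells given 4 µM of the compound for 6 days, and the 3 DMSO arrays from cells without it. Both groups had 0.25% DMSO, and on day 3 both received fresh medium, were brought back to the starting density of viable cells and were dosed again. The data thus hold 1 line, 1 dose and 1 time. The labels name biological replicates without saying how the cultures were kept apart. The p-values therefore rest on the spread among 3 samples a group, some of which may be technical.

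A human cell copies its genome by loading an inactive helicase on DNA in G1 and firing it in S phase. The origin recognition complex (ORC), CDC6 and CDT1 load the MCM2 to MCM7 ring, a step called licensing, and geminin (GMNN) blocks CDT1 once S phase has begun. The kinases CDC7 with DBF4 and CDK2 with cyclin E then add CDC45 and GINS to the ring, polymerases and the PCNA clamp follow, and many of these genes are known targets of E2F transcription factors. In MLL leukemia, menin is a cofactor that brings MLL fusion proteins to chromatin, and its inhibition is studied as a way to slow these cells.

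Replication genes were mostly higher after MI-389: 41 of 57 (71.9%) rose and 3 (5.26%) fell, at an adjusted p under 0.05 from limma over all genes. Of all 18239 genes, 18.4% were called higher and 15.7% lower, 34.1% in all. The median log2 change was 0.37 over the members and 0.018 over all genes. In 25 members (43.9%) the rise was at least 0.5, against 6.61% of all genes, and in 2 (3.51%) the fall was at least 0.5, against 5.91%. The largest rises were those of GINS1 (1.14, or 2.21-fold), POLE2 (1.07) and GINS3 (1.04), which were also the members that passed 2-fold. The members that fell were PRIM1 (-0.63), CDT1 (-0.60) and DBF4 (-0.39). In this report a value is the deposited log2 level of a probe set, a change is the MI-389 mean minus the DMSO mean, values of a group are given in the order of replicates 1, 2 and 3, and "rose" and "fell" are kept for genes that passed the test. The standard errors (SE) of the members' changes lay between 0.05 and 0.11. Since RNA came from whole cultures, more cells in S phase and more transcript per cell cannot be told apart.

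All MI-389 arrays lay above all DMSO arrays for 43 members (75.4%) and below them for 5 (8.77%), against 24.9% and 20.5% of all genes. The members' median distance from their DMSO means was 0.44, 0.37 and 0.42 on the MI-389 arrays and between -0.022 and 0.0094 on the DMSO arrays. Leaving out any 1 array left 39 to 41 members higher and 3 lower. Bright probe sets are called more often than dim ones. Among the 8668 genes with a mean of at least 5.49, the level that nearly all nonspecific control probe sets stayed under, 30.4% were called higher and 27.4% lower. Of the 54 members in that range, all but MCM5, CHAF1B and CLSPN, 40 (74.1%) were higher and 3 (5.56%) lower.

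**Figure D1:**
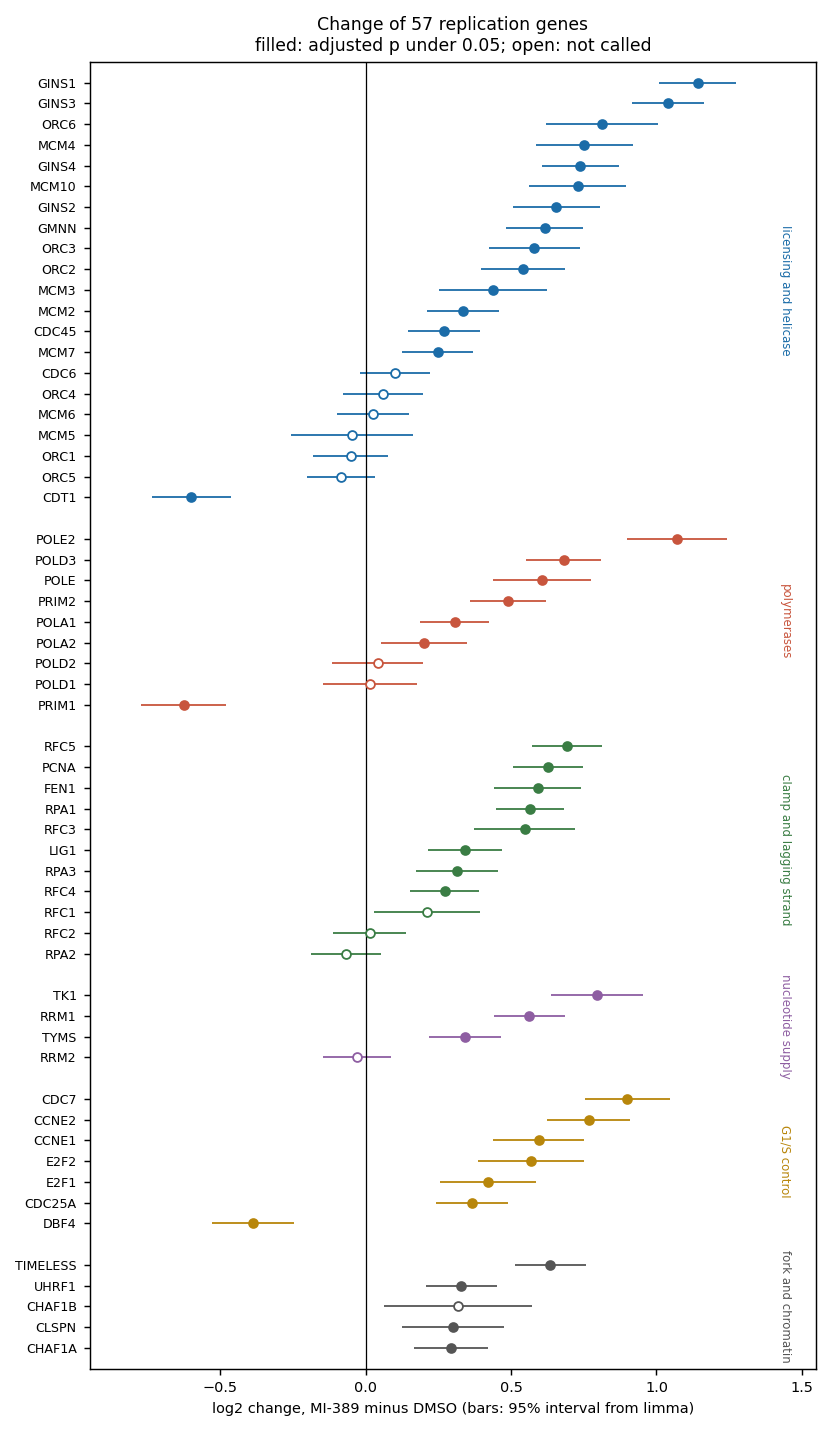
Log2 change (MI-389 minus DMSO) of each of the 57 genes, with its 95% interval from limma, by class. Filled points passed an adjusted p of 0.05 and open points did not: 41 filled points lie right of 0 and 3, CDT1, PRIM1 and DBF4, left of it.

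The scale of the arrays bears on these counts. Array medians of the deposited values lay between 4.47 and 4.49. The hybridisation spike-ins, foreign transcripts added in fixed amounts, read 0.25 higher on the MI-389 arrays. Centring the arrays on them lowers every gene by that amount, takes the median of all genes to -0.23, and leaves 26 members higher and 13 lower, with 7.66% of all genes higher and 60.6% lower. Relative to the median of all genes the members' median was 0.35 higher on either scale. That gap is fixed, since the centring shifts every gene alike, and is no check of either scale. What the offset of the spike-ins reflects was not tested. Counts on both scales are given below, and values are those as deposited. Of the 7 measured markers of myelomonocytic cells, LYZ (lysozyme) and FLT3 read 11.07 and 11.01 on average with DMSO, CD68 and CSF1R lay above 5.49, and ITGAM, MPO and CD14 were under it (4.93, 4.94 and 3.59). These markers moved with the replication genes: 6 rose, led by ITGAM (2.79), LYZ (2.06) and CSF1R (1.65), and FLT3 fell (-1.41), with 5 higher and 1 lower after the centring. Among the 6, MPO and CD14 had MI-389 means that were also under 5.49 (5.19 and 4.30). The part of the markers in the results was not tested. In both groups, 8 of 9 measured markers of T and B cells, red cells, platelets, NK cells and fibroblasts had means under 5.49, the exception being NCAM1.

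The start regions of the genes at both ends of the list are printed because E2F sites near the start are the known shared feature of this gene group. They run from 250 bases before to 50 after a RefSeq start on GRCh38.p14, 5′ to 3′ on the gene's strand, and capitals mark matches to the 7-letter E2F motifs defined below on either strand. GINS1 lies at chr20:25407423-25407722 (plus strand), POLE2 at chr14:49688165-49688464 (minus strand) and GINS3 at chr16:58392221-58392520 (plus strand). For the genes that fell, CDT1 lies at chr16:88803539-88803838 (plus strand), PRIM1 at chr12:56752274-56752573 (minus strand) and DBF4 at chr7:87876243-87876542 (plus strand). MCM6, at chr2:135876394-135876693 (minus strand), is shown as a gene with 4 matches and a change of 0.025.
GINS1: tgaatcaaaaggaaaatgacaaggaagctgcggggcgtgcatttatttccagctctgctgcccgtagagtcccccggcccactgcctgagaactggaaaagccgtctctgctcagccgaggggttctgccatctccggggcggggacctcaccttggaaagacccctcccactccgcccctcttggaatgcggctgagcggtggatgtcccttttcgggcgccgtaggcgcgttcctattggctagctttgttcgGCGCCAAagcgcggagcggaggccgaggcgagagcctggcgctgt
POLE2: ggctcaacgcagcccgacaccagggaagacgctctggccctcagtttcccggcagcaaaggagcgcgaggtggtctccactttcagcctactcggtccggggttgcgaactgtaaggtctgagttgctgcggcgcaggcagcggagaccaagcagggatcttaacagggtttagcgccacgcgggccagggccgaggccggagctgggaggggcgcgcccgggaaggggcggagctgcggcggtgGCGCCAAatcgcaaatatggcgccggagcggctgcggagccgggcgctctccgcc
GINS3: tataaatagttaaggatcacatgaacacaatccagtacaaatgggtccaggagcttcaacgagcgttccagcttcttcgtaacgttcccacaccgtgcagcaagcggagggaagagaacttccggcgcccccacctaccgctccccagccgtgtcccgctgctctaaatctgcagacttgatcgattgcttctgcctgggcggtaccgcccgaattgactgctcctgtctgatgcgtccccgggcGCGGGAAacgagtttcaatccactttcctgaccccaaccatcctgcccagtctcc
CDT1: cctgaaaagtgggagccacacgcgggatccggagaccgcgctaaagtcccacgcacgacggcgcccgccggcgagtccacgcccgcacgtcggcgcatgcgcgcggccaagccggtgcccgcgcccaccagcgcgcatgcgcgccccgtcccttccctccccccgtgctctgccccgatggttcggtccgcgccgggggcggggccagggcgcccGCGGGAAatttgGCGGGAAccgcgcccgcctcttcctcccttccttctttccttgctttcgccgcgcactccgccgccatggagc
PRIM1: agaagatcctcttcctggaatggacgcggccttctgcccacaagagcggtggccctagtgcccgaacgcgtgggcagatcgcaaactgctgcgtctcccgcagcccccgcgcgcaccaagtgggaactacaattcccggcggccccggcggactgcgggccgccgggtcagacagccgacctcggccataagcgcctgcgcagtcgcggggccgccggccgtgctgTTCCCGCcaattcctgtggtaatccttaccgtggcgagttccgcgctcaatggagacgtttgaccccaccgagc
DBF4: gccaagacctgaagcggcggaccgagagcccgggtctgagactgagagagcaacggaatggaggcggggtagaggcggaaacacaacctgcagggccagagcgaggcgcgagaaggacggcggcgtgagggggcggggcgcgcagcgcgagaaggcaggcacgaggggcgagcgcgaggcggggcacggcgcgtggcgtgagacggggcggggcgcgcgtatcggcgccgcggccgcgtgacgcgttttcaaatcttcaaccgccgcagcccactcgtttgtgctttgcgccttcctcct
MCM6: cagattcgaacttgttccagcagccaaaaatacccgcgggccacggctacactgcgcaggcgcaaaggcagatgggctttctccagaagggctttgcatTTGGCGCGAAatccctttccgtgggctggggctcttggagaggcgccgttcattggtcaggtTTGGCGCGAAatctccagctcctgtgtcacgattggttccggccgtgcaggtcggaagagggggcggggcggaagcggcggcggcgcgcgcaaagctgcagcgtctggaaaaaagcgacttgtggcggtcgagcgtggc

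The match in GINS1 began 6 bases into the transcript, and those in POLE2 and GINS3 spanned the start, from 5 bases before it to the second transcribed base, written as -5 to 2. CDT1, which fell, held matches at -35 to -29 and -23 to -17, and PRIM1 held 1 at -24 to -18. None was found in DBF4. In MCM6 the 4 matches overlapped in pairs, since the letters TTGGCGCGAA hold a match on each strand. A match is a description of letters and not a site of binding, and the absence of one says only that these letters are not in the window.

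Start regions were matched for 50 of the 57 members, and MCM4, MCM5, GINS4, POLD3, RPA2, RPA3 and CCNE2 had none in the table. The 8-letter E2F motifs TTTCGCGC, TTTGGCGC, TTTCCCGC and TTTGCCGC were found, on either strand, in 25 of the 50 (50.0%). The share was 3.99% of all 27305 genes with a start region and 7.20% of the 7320 of these with a mean of at least 5.49. Of the 36 matched members that rose 22 held such a motif, of the 3 that fell 1, and of the 11 that were not called 2. The median change was 0.42 in members with the motif and 0.29 in those without. The 7-letter forms, the same motifs without their first T and so contained in them, were found in 38 members (76.0%) against 15.3% of all genes and 25.9% of the brighter ones. For these the order of the medians turned, 0.35 with and 0.38 without. The letters CCAAT, the box bound by NF-Y, stood in 30 members (60.0%), in 39.7% of all genes and in 43.8% of the brighter ones. TTTGAA, a motif of late cell cycle genes, stood in 2 members, RRM1 and DBF4. It stood in 18.2% of all genes and in 13.9% of the brighter ones. A gene with several listed starts, as 11 of the 50 members had, was counted when any of its windows held the motif.

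Of the 21 licensing and helicase genes 14 rose and 1 fell, with a median change of 0.44; with the spike-in centring 10 were higher and 6 lower (median 0.19). Among the 6 ORC subunits, which mark origins, 3 rose. ORC6, the smallest subunit, read 8.44, 8.44 and 8.41 with DMSO and 9.18, 9.10 and 9.45 with MI-389 and rose by 0.81 (SE 0.09, adjusted p = 4.27e-05). ORC3 read 7.26, 7.31 and 7.18 with DMSO and 7.72, 7.82 and 7.95 with MI-389, and ORC2 read 6.18, 6.01 and 5.99 with DMSO and 6.61, 6.57 and 6.62 with MI-389. ORC3 rose by 0.58 and ORC2 by 0.54, with no overlap between the groups in either. ORC1, the subunit whose level is known to follow the cell cycle, read 6.70, 6.72 and 6.82 with DMSO and 6.74, 6.69 and 6.65 with MI-389. Its groups overlapped, and the difference of -0.052 had a 95% interval from -0.18 to 0.077 (adjusted p = 0.557). ORC4 changed by 0.059 and ORC5 by -0.084, neither past the test, and with the spike-in centring ORC1, ORC4 and ORC5 were called lower (-0.30, -0.19 and -0.34).

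The loading factors moved apart. CDT1, the loader of the MCM ring, read 9.60, 9.58 and 9.62 with DMSO and 9.05, 9.05 and 8.90 with MI-389 and fell by 0.60 (SE 0.06, adjusted p = 3.09e-05). Its other probe sets gave changes of -1.22 and -1.27, so that 3 of 3 were lower and the representing one showed the smallest fall. GMNN, the inhibitor of CDT1, read 9.21, 9.20 and 9.34 with DMSO and 9.90, 9.83 and 9.86 with MI-389 and rose by 0.62 (SE 0.06, adjusted p = 2.24e-05). Both genes had groups that did not overlap. CDC6, the ATPase that works with CDT1, read 8.68, 8.75 and 8.71 with DMSO and 8.84, 8.79 and 8.80 with MI-389. The MI-389 arrays lay above the DMSO arrays, but the change of 0.10 did not pass (adjusted p = 0.188), while its dimmer probe set was called higher at 0.27.

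Of the MCM2 to MCM7 helicase subunits 4 rose and 0 fell; with the spike-in centring 1 was higher and 2 lower. MCM4 read 9.76, 9.74 and 9.76 with DMSO and 10.55, 10.62 and 10.34 with MI-389 and rose by 0.75 (SE 0.07, adjusted p = 2.66e-05). That was the largest change of the ring among the representing probe sets. MCM3 read 9.10, 9.07 and 9.17 with DMSO and 9.58, 9.70 and 9.37 with MI-389, and MCM2 read 9.09, 9.06 and 9.16 with DMSO and 9.46, 9.44 and 9.41 with MI-389. MCM3 rose by 0.44, MCM2 by 0.33 and MCM7 by 0.25, and MCM7 turned to -0.005 with the spike-in centring. The other probe sets of MCM3 gave 0.69, 0.71 and 0.83, so the rank of MCM4 depends on the choice of probe set. MCM7 was called higher in 2 of 4 probe sets, and the others gave -0.0036 and 0.15. The MI-389 arrays of MCM3 and MCM4 shared an order, with replicate 2 highest and replicate 3 lowest. MCM6 read 8.52, 8.55 and 8.58 with DMSO and 8.53, 8.63 and 8.56 with MI-389, with overlapping groups and a change of 0.025 (adjusted p = 0.785). Its other probe sets were called lower at -0.25 and -0.22, and the change of the gene was -0.15 with the mean of its probe sets and -0.23 with the spike-in centring. MCM5 had 1 probe set, with means of 4.74 and 4.70 under the level of nonspecific probe sets, so that its level cannot be told from background. With MCM6 it makes up the 2 called lower with the spike-in centring (-0.30).

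GINS1 to GINS4, CDC45 and MCM10, which help to turn the loaded ring into a working helicase, all rose, but CDC45 only through 1 of 3 probe sets. DBF4, part of the kinase that acts in this step, fell and is described with G1/S control. GINS is a complex of 4 small subunits that joins CDC45 and the MCM ring, and all 4 rose, on the spike-in scale too. GINS1 read 7.86, 7.82 and 7.94 with DMSO and 9.02, 8.97 and 9.07 with MI-389 and rose by 1.14 (SE 0.06, adjusted p = 2.30e-07). GINS3 read 6.91, 6.82 and 6.87 with DMSO and 7.92, 7.86 and 7.94 with MI-389 and rose by 1.04 (adjusted p = 2.91e-07). Relative to its DMSO mean, GINS1 more than doubled on every MI-389 array and GINS3 on replicates 1 and 3. GINS4 read 7.06, 7.09 and 7.04 with DMSO and 7.77, 7.74 and 7.89 with MI-389, and GINS2 read 7.23, 7.16 and 7.25 with DMSO and 7.97, 7.88 and 7.76 with MI-389. They rose by 0.74 and 0.66. GINS1 is represented by the brightest of its 3 probe sets, and the others gave 0.46, called, and 0.12, not called. CDC45 read 7.62, 7.72 and 7.70 with DMSO and 7.94, 7.98 and 7.92 with MI-389 and rose by 0.27 (adjusted p = 0.00338), but its other probe sets read -0.014 and -0.024, and with the mean of all 3 its change was 0.077 and not called, as was its change with the spike-in centring (0.018). MCM10, a scaffold that helps the helicase to open, read 7.07, 7.10 and 7.11 with DMSO and 7.94, 7.66 and 7.86 with MI-389 and rose by 0.73 (SE 0.07, adjusted p = 3.41e-05), with 3 of 3 probe sets higher.

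**Figure D2:**
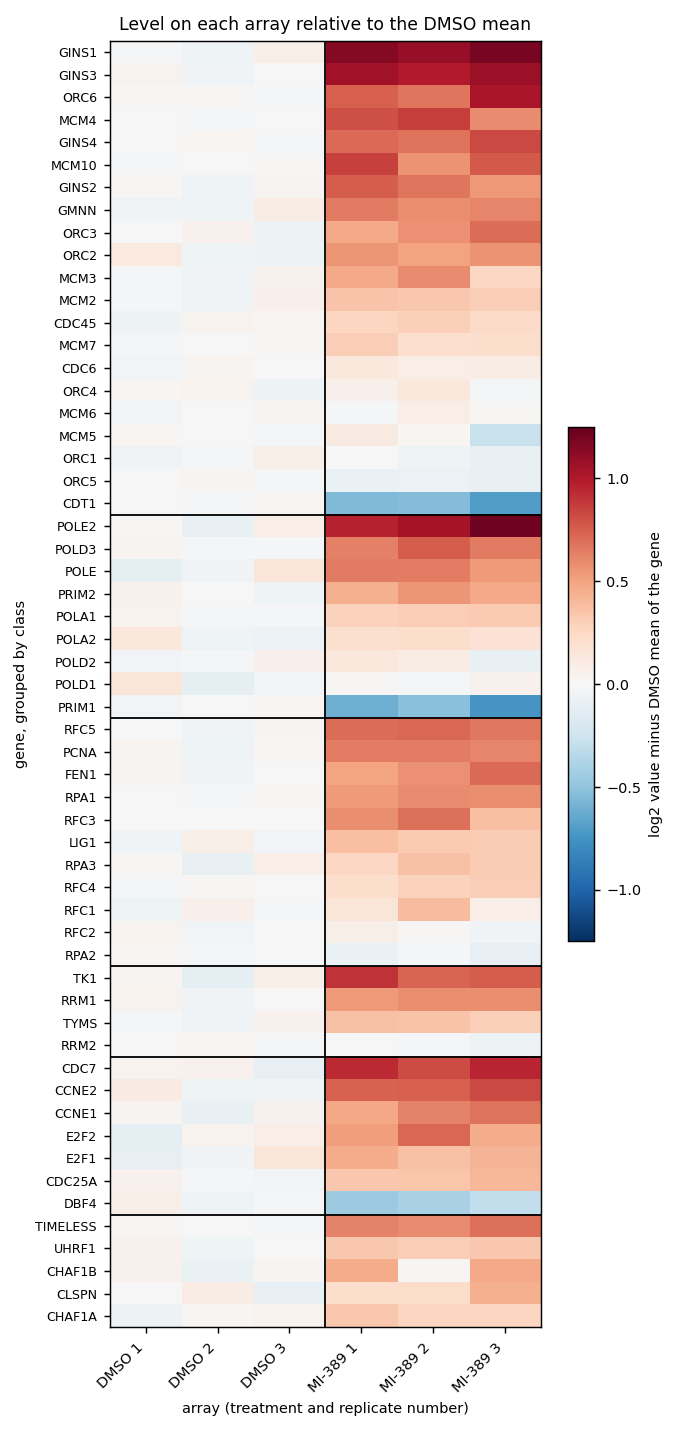
Log2 level of each of the 57 genes (lines, grouped by class in the same order as in the plot of changes) on each array (columns), minus the gene's DMSO mean. The 3 MI-389 columns are red for most genes and blue for CDT1, PRIM1 and DBF4, and the 3 DMSO columns stay near 0.

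Of the 9 polymerase genes 6 rose and 1 fell, with a median of 0.31; with the spike-in centring the counts were 4 and 3 (median 0.054). Polymerase alpha and primase start each strand with a short primer, and their 4 genes did not move together. PRIM1, the catalytic primase subunit, read 9.44, 9.48 and 9.50 with DMSO and 8.86, 8.95 and 8.74 with MI-389. PRIM1 fell by 0.63 (SE 0.07, adjusted p = 3.81e-05), the largest fall among the probe sets that represent the 57 genes. The rank depends on that choice, since the other probe sets of CDT1 fell further (-1.22 and -1.27). PRIM2, the large primase subunit, read 6.77, 6.72 and 6.67 with DMSO and 7.16, 7.27 and 7.20 with MI-389 and rose by 0.49 (SE 0.06, adjusted p = 9.27e-05). Neither gene had overlapping groups, so the subunits of 1 enzyme changed in opposite directions. PRIM1 had 1 probe set, and the other probe set of PRIM2, dim in both groups, read -0.059.

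POLA1, the catalytic subunit of polymerase alpha, read 7.93, 7.86 and 7.86 with DMSO and 8.17, 8.20 and 8.21 with MI-389 and rose by 0.31 (adjusted p = 0.00122). POLA2, its regulatory subunit, read 6.82, 6.64 and 6.63 with DMSO and 6.90, 6.92 and 6.87 with MI-389, with a change of 0.20 (adjusted p = 0.0388) close to the threshold. That call was lost when DMSO replicate 2 or 3, or MI-389 replicate 1, 2 or 3, was left out, or when the arrays were shifted to a common median (adjusted p = 0.057 to 0.143), and on the spike-in scale the change was -0.052. In the limma test over all probe sets it did not pass either (adjusted p = 0.0511). The dimmer probe set of POLA2, with means of 5.19 with DMSO and 5.74 with MI-389, was called higher there at 0.54. Of the epsilon polymerase, which copies the leading strand, both members of the list rose on either scale. POLE2 read 7.03, 6.92 and 7.09 with DMSO and 7.97, 8.05 and 8.23 with MI-389 and rose by 1.07 (SE 0.08, adjusted p = 2.67e-06), and POLE, the catalytic subunit, read 7.45, 7.52 and 7.71 with DMSO and 8.20, 8.20 and 8.09 with MI-389 and rose by 0.61. Of its accessory subunits, taken from the wider list below and named after their values were seen, POLE3 rose by 0.62 and POLE4 changed by -0.082 (adjusted p = 0.328). Of the delta polymerase, which copies the lagging strand, only POLD3 passed among the 3 members of the list, and POLD4, from the wider list and named after its value was seen, did not (0.011, adjusted p = 0.928). POLD3 read 7.75, 7.70 and 7.71 with DMSO and 8.35, 8.48 and 8.37 with MI-389 and rose by 0.68 (adjusted p = 8.49e-06), with 3 of 3 probe sets higher. The catalytic subunit POLD1 changed by 0.015 (95% interval -0.15 to 0.18) and POLD2 by 0.041 (interval -0.12 to 0.20), and both were called lower with the spike-in centring (-0.24 and -0.21).

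Of the 11 clamp and lagging strand genes 8 rose and 0 fell, with a median of 0.34; with the spike-in centring 5 were higher and 2 lower. PCNA, the ring that holds polymerases on DNA, read 10.81, 10.72 and 10.81 with DMSO and 11.42, 11.42 and 11.39 with MI-389 and rose by 0.63 (SE 0.05, adjusted p = 9.53e-06). The replication factor C complex loads this ring, and 3 of its 5 subunits rose, 2 higher and 1 lower on the spike-in scale. RFC5 read 8.03, 7.98 and 8.06 with DMSO and 8.73, 8.74 and 8.68 with MI-389 and rose by 0.69 (adjusted p = 4.34e-06), with 3 of 3 probe sets higher. RFC3 read 8.40, 8.41 and 8.40 with DMSO and 8.98, 9.09 and 8.78 with MI-389 and rose by 0.55. RFC4 rose by 0.27, but its other probe sets, with means under 3.4, read -0.024 and 0.039. RFC1, the large subunit, changed by 0.21 (adjusted p = 0.0764), with 1 of 3 probe sets called higher, and passed when MI-389 replicate 3 was left out (0.27, adjusted p = 0.0323). RFC2 changed by 0.0145 (95% interval -0.11 to 0.14).

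FEN1, the flap nuclease that trims Okazaki fragments, read 9.74, 9.66 and 9.71 with DMSO and 10.20, 10.27 and 10.41 with MI-389 and rose by 0.59 (SE 0.07, adjusted p = 6.40e-05). LIG1, the ligase that joins them, read 7.65, 7.77 and 7.66 with DMSO and 8.07, 8.02 and 8.01 with MI-389 and rose by 0.34, with 5 of 6 probe sets higher. Both had groups that did not overlap. Of the single-strand binding protein RPA, the subunits did not move alike, with 2 higher and 0 lower as deposited and 1 and 1 on the spike-in scale. RPA1 read 10.11, 10.08 and 10.11 with DMSO and 10.63, 10.69 and 10.68 with MI-389 and rose by 0.56 (SE 0.05, adjusted p = 1.62e-05). That call rests on the brighter of 2 probe sets. The other, with means of 4.72 and 4.81 under 5.49, gave 0.097 without a call. RPA2 read 10.36, 10.33 and 10.35 with DMSO and 10.27, 10.33 and 10.25 with MI-389. Its MI-389 arrays lay below the DMSO arrays by a small amount (-0.068, adjusted p = 0.389), and 1 of its 3 probe sets was called lower at -0.19. RPA3 rose by 0.31.

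Of the 4 genes of nucleotide supply 3 rose and 0 fell; with the spike-in centring 2 were higher and 1 lower. TK1, thymidine kinase of the salvage route, read 8.10, 7.96 and 8.14 with DMSO and 8.97, 8.80 and 8.82 with MI-389 and rose by 0.80 (SE 0.07, adjusted p = 1.18e-05). TYMS, thymidylate synthase, read 10.64, 10.60 and 10.70 with DMSO and 11.01, 11.01 and 10.95 with MI-389 and rose by 0.34 (adjusted p = 7.78e-04). Every probe set of these 2 genes was called higher. Ribonucleotide reductase, which makes deoxynucleotides, differed between its subunits. RRM1, the large subunit, read 9.94, 9.85 and 9.89 with DMSO and 10.42, 10.47 and 10.47 with MI-389 and rose by 0.56 (SE 0.05, adjusted p = 2.14e-05), with 3 of 5 probe sets called. RRM2, the small subunit, read 10.18, 10.21 and 10.17 with DMSO and 10.18, 10.17 and 10.12 with MI-389, and its groups overlapped with a change of -0.029 (95% interval -0.15 to 0.088). The other probe set of RRM2 was called lower at -0.37. With probe sets without the suffixes _x_at, _s_at and _a_at preferred, RRM1 stood at 0.028 and was not called. That value came from a probe set with means under 5.49 in both groups, where a level cannot be told from background. Of the RRM1 probe sets with the suffix _a_at, those called higher gave 0.51 and 0.50, and the other read -0.17 without a call.

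All 7 genes of G1/S control passed the test, 6 higher and 1 lower, with a median of 0.57; with the spike-in centring 4 were higher and 1 lower (median 0.31). CDC7, the kinase that fires loaded origins, read 7.38, 7.38 and 7.23 with DMSO and 8.26, 8.15 and 8.28 with MI-389 and rose by 0.90 (SE 0.06, adjusted p = 2.67e-06). DBF4, its activating subunit, read 8.60, 8.47 and 8.50 with DMSO and 8.07, 8.12 and 8.22 with MI-389 and fell by 0.39 (SE 0.06, adjusted p = 8.03e-04), in 7 of 7 probe sets. CDC7 and DBF4 thus moved in opposite directions, with no overlap between the groups in either gene. DBF4B, the other activating subunit, from the wider list and named after its value was seen, rose by 0.37 (adjusted p = 0.00103). CCNE2 and CCNE1 are the E cyclins, which drive CDK2 into S phase. CCNE2 read 7.47, 7.30 and 7.31 with DMSO and 8.09, 8.11 and 8.19 with MI-389, and CCNE1 read 7.52, 7.38 and 7.54 with DMSO and 7.96, 8.10 and 8.16 with MI-389. They rose by 0.77 and 0.59, each in 2 of 2 probe sets.

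E2F1 and E2F2 are the activating E2F factors among the members. E2F1 read 6.54, 6.60 and 6.80 with DMSO and 7.12, 7.02 and 7.07 with MI-389 and rose by 0.42 (SE 0.07, adjusted p = 0.00129), a change no longer called with the spike-in centring (0.17). E2F2 read 6.39, 6.57 and 6.60 with DMSO and 7.05, 7.23 and 6.98 with MI-389 and rose by 0.57 (adjusted p = 3.47e-04), while its other probe set, near 4 in both groups, read -0.078. In both genes DMSO replicate 1 was the lowest array, and the groups did not overlap. CDC25A, the phosphatase that activates CDK2, read 6.73, 6.66 and 6.65 with DMSO and 7.02, 7.03 and 7.10 with MI-389 and rose by 0.37, which was 0.11 and not called with the spike-in centring.

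Of the 5 genes of fork protection and chromatin assembly 4 rose and 0 fell; with the spike-in centring 1, TIMELESS, was higher and 0 lower. TIMELESS, which stabilises the fork, read 7.88, 7.84 and 7.83 with DMSO and 8.47, 8.44 and 8.54 with MI-389 and rose by 0.63 (SE 0.05, adjusted p = 9.81e-06). UHRF1, which guides DNA methylation of new strands, read 9.67, 9.56 and 9.61 with DMSO and 9.95, 9.93 and 9.95 with MI-389 and rose by 0.33. The other probe set of TIMELESS and both others of UHRF1 had means under 5.49 and were not called. CHAF1A, the large subunit of the chromatin assembly factor that places histones on new DNA, read 8.29, 8.38 and 8.41 with DMSO and 8.70, 8.63 and 8.63 with MI-389 and rose by 0.29. Its 3 probe sets gave 0.097, 0.29 and 0.95, the last 2 called. CHAF1B read 5.34, 5.21 and 5.32 with DMSO and 5.76, 5.30 and 5.76 with MI-389, with MI-389 replicate 2 among the DMSO arrays. Its change of 0.32 did not pass (adjusted p = 0.0553) and was 0.47 and called without that array (adjusted p = 6.49e-04). CLSPN, a mediator of the checkpoint kinase, passed at 0.30 and is counted among the 41, but both groups were under 5.49, where a level cannot be told from background, and it lost the call without DMSO replicate 3 (adjusted p = 0.0564).

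At the level of single probe sets, 84 of the 146 (57.5%) were called higher and 15 (10.3%) lower, against 14.0% and 14.0% of all tested probe sets. In all 67.8% were called, against 28.0%. No member had probe sets called in opposite directions. Of the 42 members with 2 or more probe sets, 13 had all of them higher, 2 (CDT1 and DBF4) all lower, and 20 some higher and some not called. The 15 lower probe sets belonged to 6 members: 7 to DBF4, 3 to CDT1, 2 to MCM6 and 1 each to PRIM1, RPA2 and RRM2. Of the 47 probe sets without a call 25 had means under 5.49, and of the 84 called higher 12 did. With probe sets without the suffixes _x_at, _s_at and _a_at preferred, 34 members were higher and 4 lower. TIMELESS, UHRF1, E2F2 and RFC4 then stood at -0.0084, -0.10, -0.078 and -0.024, each on a probe set under 5.49.

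**Figure D3:**
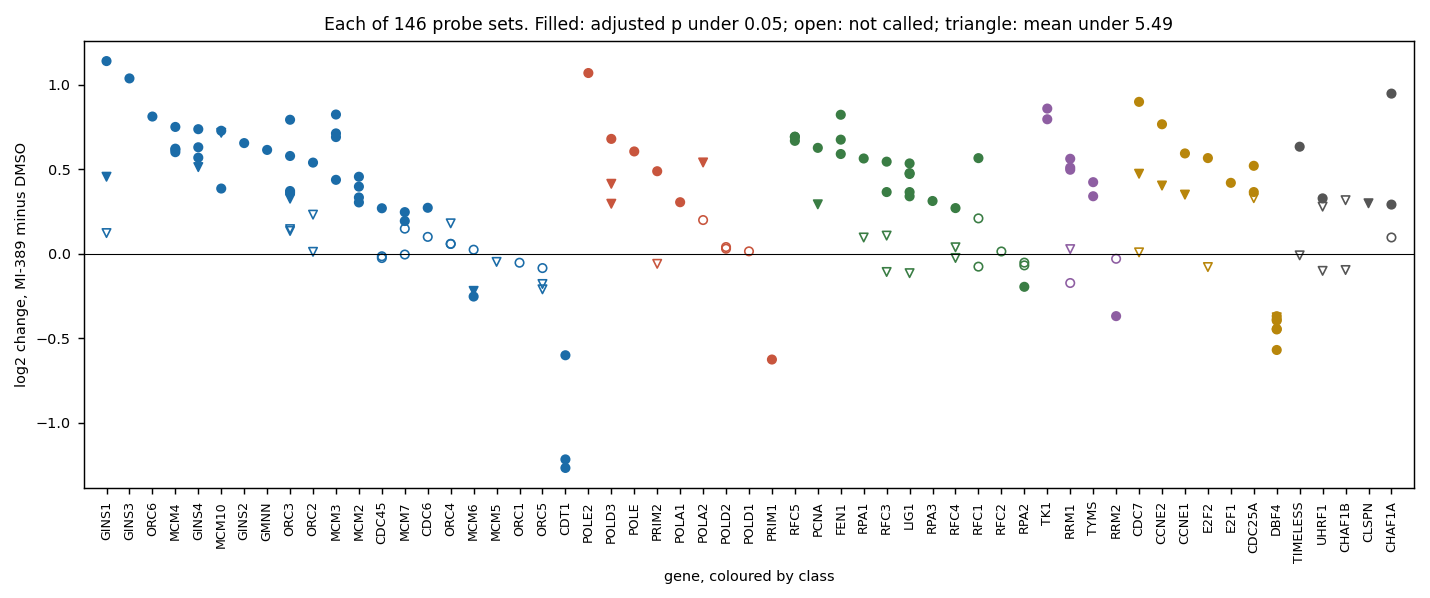
Log2 change (MI-389 minus DMSO) of each of the 146 probe sets, by gene and class. Filled symbols passed an adjusted p of 0.05, open ones did not, and triangles had a mean under 5.49; the 7 probe sets of DBF4 and the 3 of CDT1 all lie below 0, and no gene has filled symbols on both sides of 0.

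Ratios between members of paired roles were compared within each array, which no shift of a whole array can alter. The log2 ratio of CDT1 to GMNN stood at 0.39, 0.38 and 0.28 with DMSO and at -0.85, -0.78 and -0.96 with MI-389, a change of -1.22 (SD of the difference 0.11). For DBF4 to CDC7 the ratio went from 1.22, 1.09 and 1.27 to -0.19, -0.027 and -0.058, a change of -1.29 (SD 0.13). A ratio between probe sets has no absolute meaning, and only its change is read. RRM2 to RRM1 changed by -0.59 (SD 0.08), ORC1 to ORC2 by -0.59 (SD 0.16), CDC6 to CDT1 by 0.70 (SD 0.10) and MCM10 to MCM2 by 0.39 (SD 0.15). In these 6 pairs and in CCNE2 to CCNE1 (0.17, SD 0.11) the groups did not overlap, which gives an exact two-sided permutation p = 0.10, the smallest that 3 against 3 arrays allow (0.114 adjusted over the 8 pairs). E2F2 to E2F1 changed by 0.15 with overlapping groups (SD 0.19, exact permutation p = 0.30).

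**Figure D4:**
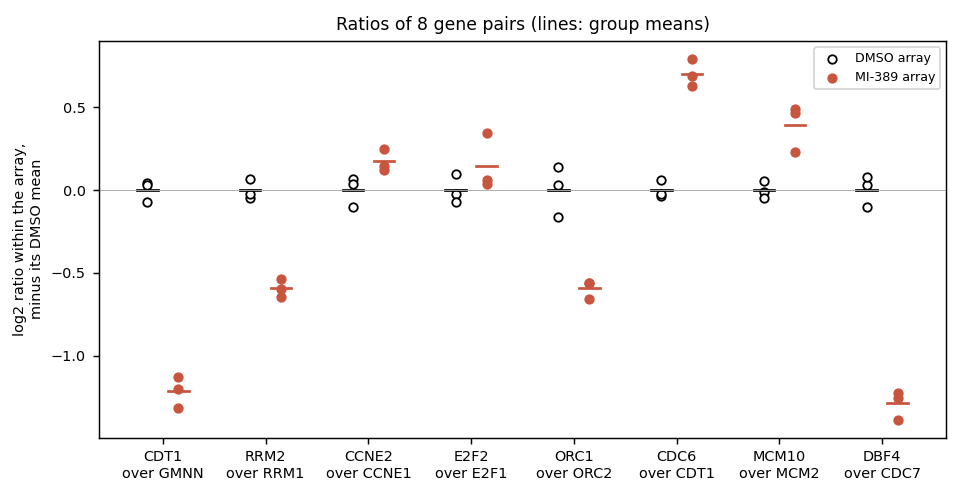
Log2 ratio of 8 gene pairs within each array, minus the mean ratio on the DMSO arrays. Open circles are DMSO arrays, filled circles MI-389 arrays and lines group means (n = 3 each); the ratios of CDT1 to GMNN and of DBF4 to CDC7 lie more than 1 below the DMSO mean on every MI-389 array.

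A wider list of replication genes had 31 of 51 measured genes higher and 4 lower (median 0.28), and 11 and 14 with the spike-in centring. SAMHD1, which breaks down deoxynucleotides and is also known as a myeloid gene, rose by 1.04, DSCC1, part of an alternative clamp loader, by 0.76, and the repressor E2F8 by 0.74. The histone chaperone ASF1A (-0.77), LRWD1 (-0.41), a protein that binds ORC, and SLBP (-0.23), which binds histone messenger RNA, fell. Of 39 genes of G2 and mitosis 31 rose and 1, PLK1, fell (median 0.39), with 16 higher and 5 lower after the centring. Those of G2 and mitosis had about the median of the replication genes, and no test compared the lists. MKI67, the gene of the proliferation marker Ki-67, named after its value was seen, changed by -0.15 (adjusted p = 0.115).

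Of 15 measured G1 regulators, the CDK inhibitors, D cyclins, their kinases, RBL2, E2F4, E2F5 and E2F6, 0 rose and 9 fell (median -0.42), against 18.4% and 15.7% of all genes. Among the 9, E2F5 had means under 5.49 in both groups (4.41 with DMSO and 3.89 with MI-389). E2F8 and E2F7, repressors of the E2F family that were kept in the wider list, both rose, E2F7 by 0.33. RBL1, a repressor outside that family, rose by 0.35. Its means were under 5.49 in both groups, where a level cannot be told from background. RB1, also from the wider list, changed by -0.17 and was not called (adjusted p = 0.0571). E2F7, RBL1 and RB1 were named after their values were seen. With the spike-in centring 0 of the 15 G1 regulators were higher and 14 lower, against 7.66% and 60.6% of all genes. The CDK inhibitor CDKN1A went from 8.65 ± 0.07 to 6.88 ± 0.14 (log2 mean ± SD, n = 3 each), a change of -1.77. CCND2, a D cyclin, changed by -1.09, and the kinase CDK6 by -1.02.

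**Figure D5:**
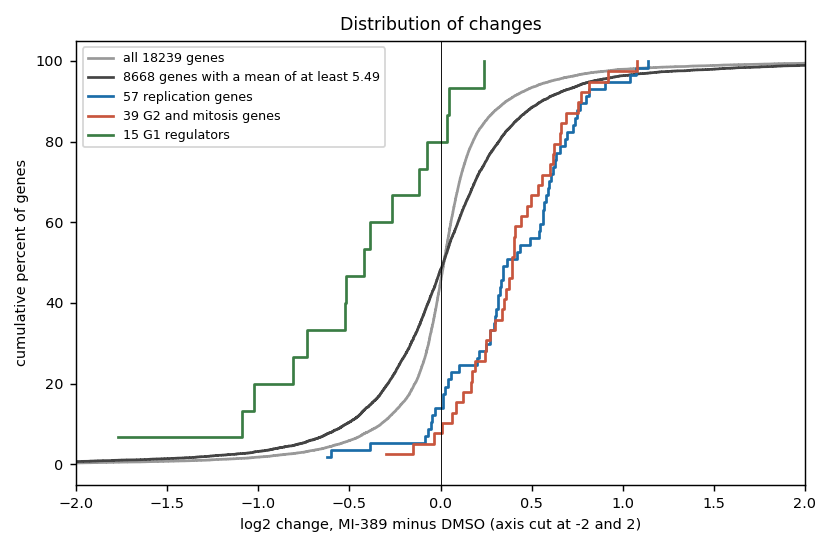
Cumulative percent of genes by log2 change (MI-389 minus DMSO), for all 18239 genes, for the 8668 with a mean of at least 5.49, and for 3 lists. The curves of the 57 replication genes and the 39 genes of G2 and mitosis lie right of that of all genes (medians 0.37, 0.39 and 0.018) and that of the 15 G1 regulators lies left of it (median -0.42).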

How the data were processed

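Gene expression was read on 6 arrays of MV4;11 cells, 3 with DMSO and 3 with MI-389. The authors deposited a log2 value for each probe set on each array. RMA and limma are named, per the submitters' processing notes, without settings. Of 49386 probe sets, 93 controls were left out. Symbols came from the platform annotation, updated through Entrez IDs in the RefSeq table of GRCh38.p14: 45253 probe sets had 1 gene, 1327 several and 2713 none. Each gene was represented by its probe set with the highest mean.

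Groups were compared with limma 3.58.1 in R 4.3.3 (lmFit, eBayes, two-sided, no covariates) over all 18239 genes, and over all probe sets, with Benjamini-Hochberg adjustment and a threshold of 0.05. Background was taken from 23 nonspecific control probe sets: all but the one of highest GC content stayed at or under 5.49. No depth applies to arrays, and their number limits the precision.

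The members and lists were chosen with earlier results of these data known. Members named with array values were called ones with changes of at least 0.5, the extremes of each class and 22 set genes; from other lists, at most 3 rises and 3 falls. Alternatives were other scalings, filters, variance models, probe set choices, thresholds and leaving out each array.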

Additional observations from a re-analysis of the deposited data

How the results depend on the processing

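Of 57 members, 41 were higher and 3 lower. With the arrays centred on the hybridisation spike-ins the counts were 26 and 13 (12453 of all genes changed), against 6214 of all genes as deposited. Against a fold of 1.2 (limma treat) 26 members were higher and 2457 of all genes changed. With the mean of all probe sets 6 members were lower, and with every probe set tested 6 had a lower one. Leaving out 1 array gave 39 to 41 higher and 3 lower. Among members called on at least 1 of the scales, changes that turned sign with the centring were ORC4 (-0.19), MCM6 (-0.23), MCM7 (-0.005), POLA2 (-0.052), POLD1 (-0.24), POLD2 (-0.21) and RFC2 (-0.24), and CDC6 (-0.15) and RFC1 (-0.042) turned with no call on either. MCM6 also turned with the mean of its probe sets (-0.15). With probe sets of the suffixes _x_at, _s_at and _a_at ranked last, MCM6 (-0.25), RFC4 (-0.024), E2F2 (-0.078), UHRF1 (-0.10) and TIMELESS (-0.0084) turned, and CHAF1B (-0.095) without a call. Leaving out 1 array or using a common median turned only changes near 0 with no call, in MCM5, MCM6, POLD1, POLD2 and RFC2. The cause was not tested, except that the centring lowers every gene by 0.25.

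With the replicate number as a block 41 members were higher and 3 lower. POLA2 lost its call and CHAF1B gained one. Equal numbers did not deviate together (r = -0.20, 0.018 and -0.14 over genes), and the labels do not say that a number marks a shared batch. Values of dim probe sets are compressed, which limits MCM5, CLSPN and CHAF1B.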
